A study of Mus musculus with 12 samples.

Results

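The genes described here were 8 CC chemokines and 1 CC chemokine receptor of mouse peritoneal cells: Ccl3, Ccl4, Ccl5, Ccl6, Ccl9, Ccl17, Ccl22, Ccl24 and Ccr1. They were chosen by symbol, which found 9 of the 21851 genes listed, and all 9 were among the 9841 genes whose average over the 12 libraries reached the 1 FPKM required for testing. FPKM are fragments scaled by transcript length and library total, so levels can be compared between genes. RNA came from peritoneal lavage cells of C57BL/6J mice, with 3 libraries in each of 4 groups. The groups were lactoferrin knockout mice injected intraperitoneally with LPS, the lipopolysaccharide of bacterial outer membranes, wild-type mice injected with LPS, lactoferrin knockout mice injected with PBS, and wild-type mice injected with PBS. The study asked how loss of lactoferrin, a protein that binds iron and is stored in neutrophil granules, alters gene expression in acute inflammation. The sources used here do not give the dose of LPS, the time to lavage, the ages of the mice or whether a library came from 1 mouse or several, so the p-values measure the spread between libraries, which may be technical.

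CC chemokines are small secreted proteins that bind G protein-coupled receptors on leukocytes and direct their migration. Ccl3, Ccl4 and Ccl5 are inflammatory chemokines that attract monocytes, macrophages and T cells, and Ccl3 and Ccl5 bind Ccr1. Ccl6 and Ccl9 are rodent chemokines that act through Ccr1 and are made by resting macrophages and other myeloid cells. Ccl17 and Ccl22 bind Ccr4 on T cells, and Ccl24 binds Ccr3 on eosinophils. Ccl17, Ccl22 and Ccl24 are known as type 2 chemokines, since interleukins 4 and 13 can induce them in macrophages and dendritic cells.

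The ligand genes lay in 3 places of the GRCm38 genome, as GENCODE M21 annotates it, and all 9 genes are annotated as protein-coding. On chromosome 11, 5 of the genes lay within 138.9 kb, with Ccl5 at chr11:83525778-83530518, Ccl9 at chr11:83572919-83578636, Ccl6 at chr11:83587882-83593087 and Ccl3 at chr11:83647844-83649355 on the minus strand, and Ccl4 at chr11:83662584-83664683 on the plus strand. Ccl9 and Ccl6 lay 9.2 kb apart, and Ccl3 and Ccl4 lay 13.2 kb apart. Between Ccl6 and Ccl3 lay 1 gene annotated as protein-coding, Rpl9-ps1. On chromosome 8, Ccl22 at chr8:94745590-94751699 and Ccl17 at chr8:94810453-94812036 shared the plus strand, with a gap of 58.8 kb that held 1 protein-coding gene, Cx3cl1. Ccl24 lay at chr5:135569937-135573049 on the minus strand. Ccr1 lay at chr9:123962124-123968692 on the minus strand, 12.9 Mb from Ltf, the lactoferrin gene at chr9:111019271-111042767.

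The sequences upstream of Ccl22 and Ccl17 are shown because these neighbours changed in opposite directions with LPS, those of Ccl6 and Ccl9 because only the first of these neighbours was called, and that of Ccl3 because it is one of the genes with the steepest change. They are RefSeq promoter windows of GRCm38.p6, given 5′ to 3′ on the strand of the gene and ending before the start of transcription. RefSeq windows were matched for 6 of the 9 genes, the other being that of Ccr1. Capitals mark motif matches.
Ccl22, chr8:94745434-94745589, plus strand: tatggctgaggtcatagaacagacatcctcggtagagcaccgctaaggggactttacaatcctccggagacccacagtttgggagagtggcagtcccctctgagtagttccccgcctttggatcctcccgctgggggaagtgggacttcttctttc
Ccl17, chr8:94810203-94810452, plus strand: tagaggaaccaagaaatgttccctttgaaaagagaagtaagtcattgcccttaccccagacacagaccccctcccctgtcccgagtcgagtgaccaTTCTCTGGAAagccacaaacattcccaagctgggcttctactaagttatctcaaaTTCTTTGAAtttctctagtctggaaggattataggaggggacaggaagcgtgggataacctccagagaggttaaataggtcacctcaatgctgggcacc
Ccl6, chr11:83593088-83593337, minus strand: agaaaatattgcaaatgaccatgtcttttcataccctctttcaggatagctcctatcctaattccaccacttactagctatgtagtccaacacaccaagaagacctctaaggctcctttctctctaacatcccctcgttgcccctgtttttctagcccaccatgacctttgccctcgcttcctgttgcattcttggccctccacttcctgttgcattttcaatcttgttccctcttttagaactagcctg
Ccl9, chr11:83578637-83578886, minus strand: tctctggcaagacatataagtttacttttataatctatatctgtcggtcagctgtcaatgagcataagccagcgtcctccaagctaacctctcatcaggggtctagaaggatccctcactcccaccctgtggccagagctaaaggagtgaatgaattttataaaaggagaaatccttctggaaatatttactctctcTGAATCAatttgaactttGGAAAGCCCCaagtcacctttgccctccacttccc
Ccl3, chr11:83649379-83649628, minus strand: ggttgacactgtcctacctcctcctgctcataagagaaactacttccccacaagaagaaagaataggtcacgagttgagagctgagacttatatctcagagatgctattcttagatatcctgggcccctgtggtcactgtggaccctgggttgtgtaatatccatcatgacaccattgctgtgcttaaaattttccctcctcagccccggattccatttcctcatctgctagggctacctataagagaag
The windows of 300 bases, 250 before and 50 after the RefSeq start, were searched on both strands for the kB motif, TTC and GAA with 4 bases between (the spacing Stat6 prefers), TTC and GAA with 3 bases between (the GAS spacing of other STAT factors), TGANTCA (AP-1) and a repeat of GAAA with 2 bases between (the interferon-stimulated element). The Ccl17 window held the Stat6 spacing beginning 154 bases and the GAS spacing beginning 99 bases before the RefSeq start, which are its capitals, and these did not overlap. The Ccl9 window held TGANTCA beginning 53 bases before the start and a kB motif on the opposite strand at 35 bases. None of the 5 motifs was found in the windows of Ccl3, Ccl6, Ccl22 or Ccr1. Among all 32851 windows of this length, 4.51% held the kB motif, 6.95% the Stat6 spacing, 8.3% the GAS spacing, 7.81% TGANTCA and 3.44% the interferon-stimulated element. A match is a run of letters and not a shown binding site.

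Library totals lay between 343874 and 388129 FPKM, with 13921 to 14574 genes above 0, and read depth is unknown because the files hold no counts. Ltf was listed at 0.0699 to 0.117 FPKM in knockout LPS libraries, 0.176 to 1.33 in wild-type LPS libraries, 0.183 to 0.258 in knockout PBS libraries and 1.16 to 1.89 in wild-type PBS libraries, lower in every knockout library than in every wild-type library of its treatment. Its difference of log2(FPKM + 1), knockout minus wild type within treatment, was -0.73 (two-sided exact permutation p = 0.005, the smallest that 400 relabellings can give). The third wild-type PBS library stood apart within its group, with rank correlations of 0.934 and 0.949 to the other replicates against at least 0.973 between other replicates of a group. Gata6, which marks large peritoneal macrophages, was at 7.48 to 27.5 FPKM, and in every library the neutrophil markers summed to at least 249.7 FPKM, the B cell markers to at least 182 and the mast cell markers to at least 480.0. Hdc counts in both the neutrophil and the mast cell sum, and averaged 97.1 FPKM in wild-type LPS libraries. In those libraries S100a8 was at 51.4 to 116 FPKM and S100a9 at 40.7 to 109.7, but Cxcr2 at 0.494 to 1.04 and Ly6g at 0 to 0.348. Whether neutrophils were present there was not tested. Of the eosinophil markers, Epx was at 0 in every library, while Ear2 was at 6.44 to 21.6 FPKM and Il5ra at 1.23 to 13.3 FPKM. The 7 mesothelial markers summed to no more than 5.17 FPKM. Erythroid markers summed to 4.46 to 1886 FPKM in knockout LPS and 7.04 to 2226 FPKM in wild-type LPS libraries. In PBS libraries these sums were 5.50 to 43.7 FPKM in the knockout and 31.0 to 329.6 FPKM in wild type. Red cell RNA thus differed widely between libraries of the same LPS group, and its effect on the values of the chemokine genes was not tested.

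**Figure D1:**
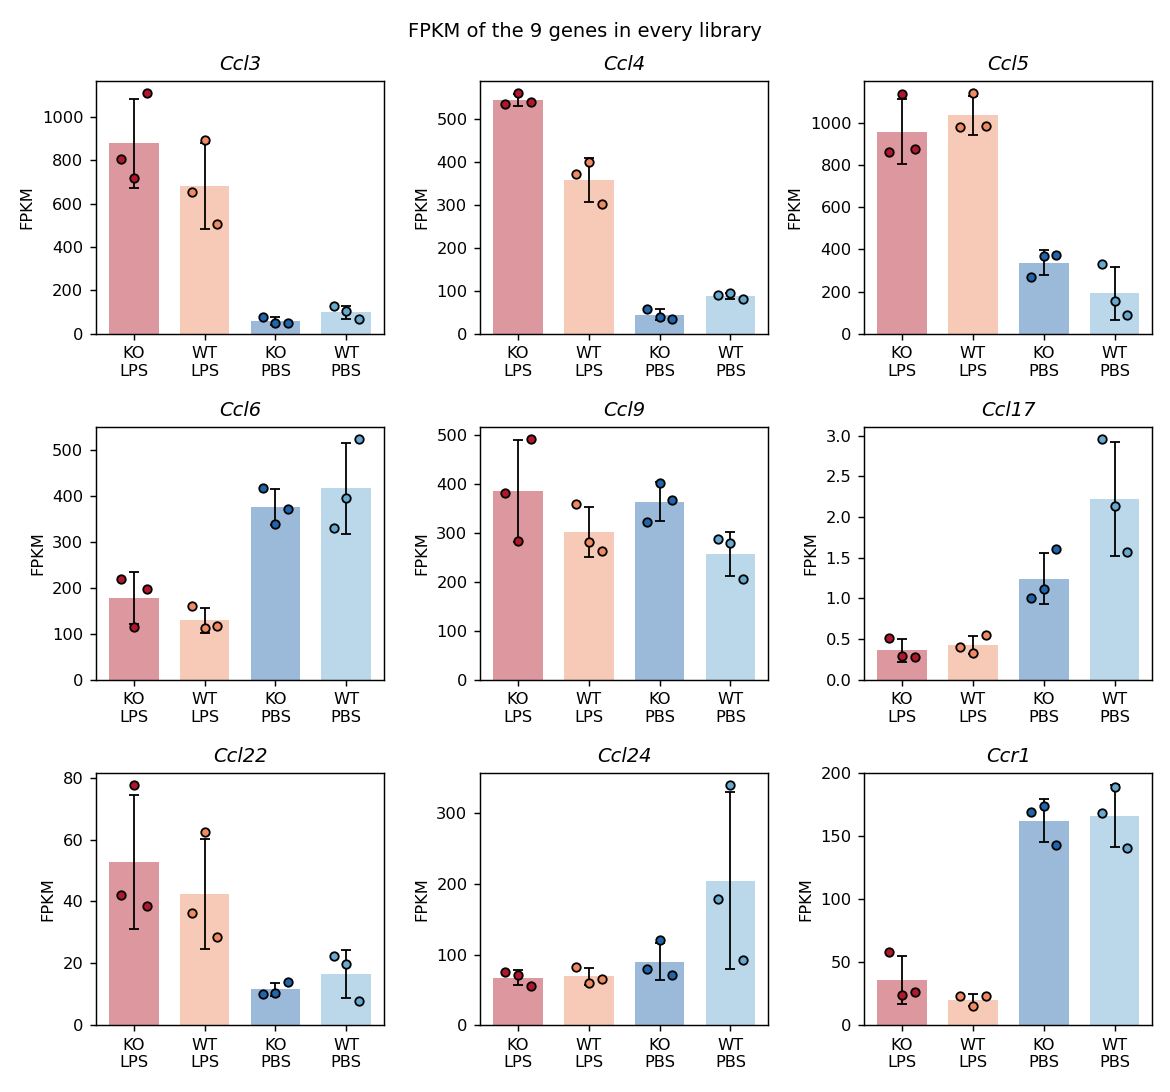
FPKM of the 9 genes, 1 panel a gene, with a point for each library (replicates 1, 2 and 3 from left to right), the bar at the mean and the whisker at 1 SD of 3 libraries. Ccl3, Ccl4, Ccl5 and Ccl22 sit higher with LPS, Ccl6, Ccl17 and Ccr1 sit lower with LPS, and Ccl9 sits between 205 and 492 FPKM in all groups.

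The order of the 9 levels differed between treatments. Under LPS, Ccl5 and Ccl3 led, followed by Ccl4, Ccl9 and Ccl6, in both genotypes. In knockout LPS libraries the ranges of Ccl5 and Ccl3 overlapped, and in wild-type LPS libraries those of Ccl4 and Ccl9 did. Ccl5 was 46th in knockout LPS libraries and 43rd in wild-type LPS libraries by mean FPKM among the 9841 genes tested. Under PBS, Ccl6 led by mean, with Ccl9 next in both genotypes. The ranges of Ccl6, Ccl9 and Ccl5 ran into each other in knockout PBS libraries, and those of Ccl9, Ccl24, Ccl5 and Ccr1 did so in wild-type PBS libraries. Ccl6 was not clear of them all in wild-type PBS libraries. It was at 330.1 to 525 FPKM there, while Ccl24 reached 339.6 FPKM and Ccl5 reached 332 FPKM. Further down, Ccl24 and Ccl22 overlapped in both LPS groups, and Ccl22 and Ccr1 in knockout LPS libraries. Ccl3 and Ccl4 overlapped in both PBS groups, and Ccl24 and Ccl3 in knockout PBS libraries. Beyond neighbours in the order of means, Ccl24 also overlapped Ccr1 in knockout LPS libraries. In wild-type PBS libraries Ccl24 and Ccl5 each overlapped Ccl3 and Ccl4. Ccl17 came last in every group, at 0.273 to 2.96 FPKM.

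Seen as shares of the summed FPKM of 21 CC ligand genes, the make-up changed with LPS in the same direction in both genotypes. Ccl3, Ccl4 and Ccl5 together made up 70.3% to 72.7% in knockout LPS libraries, 68.8% to 74.8% in wild-type LPS libraries, 30.5% to 33.7% in knockout PBS libraries and 20.3% to 35.5% in wild-type PBS libraries. Ccl6 and Ccl9 made up 11.6% to 19.9% in knockout LPS, 12.1% to 17.9% in wild-type LPS, 52.2% to 55.5% in knockout PBS and 40.0% to 62.6% in wild-type PBS libraries. Ccl17, Ccl22 and Ccl24 made up 2.71% to 4.34% in knockout LPS, 3.76% to 4.09% in wild-type LPS, 6.36% to 9.26% in knockout PBS and 8.78% to 22.6% in wild-type PBS libraries. No share of an LPS library fell within the range of the PBS libraries of its genotype. The summed ligand level was 3113 to 3472 FPKM in knockout LPS, 2502 to 3254 in wild-type LPS, 1333 to 1421 in knockout PBS and 1167 to 1600.0 in wild-type PBS libraries, so a share could be lower without a lower level.

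**Figure D2:**
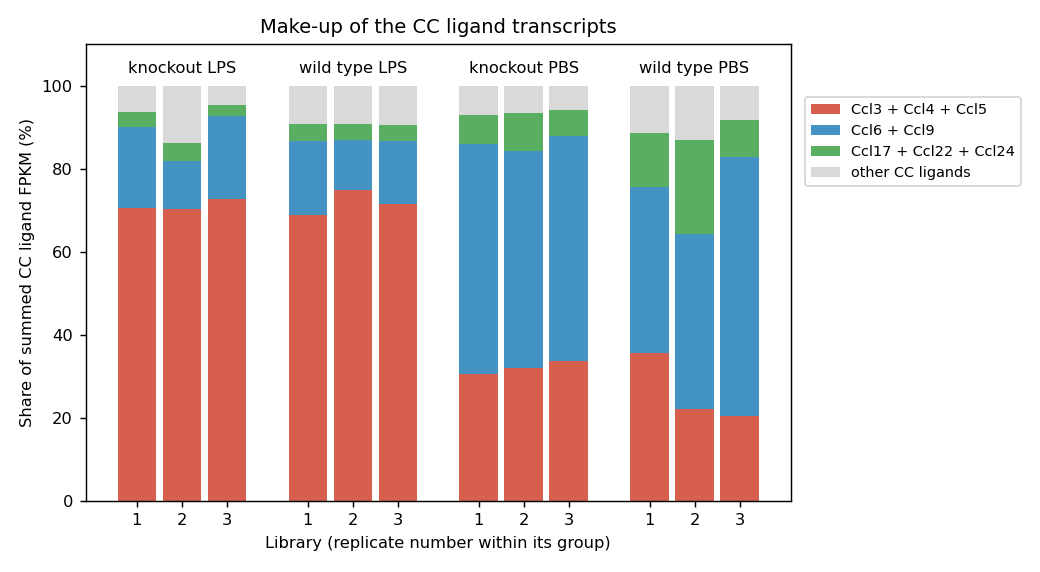
Share of the summed CC ligand FPKM, in percent, held by 3 sets of the ligands and by the other CC ligands, 1 bar a library. The Ccl3, Ccl4 and Ccl5 share is at least 68.8% in the 6 LPS libraries and at most 35.5% in the 6 PBS libraries.

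LPS was set against PBS within each genotype with limma on log2(FPKM + 1), with p-values adjusted by the Benjamini-Hochberg method over all 9841 genes and called below 0.05. In knockout libraries 7 of the 9 genes were called, 4 higher and 3 lower, where 53.2% of all genes were called, 19.9% higher and 33.3% lower. In wild-type libraries 8 of the 9 were called, 4 higher and 4 lower, where 62.2% of all genes were called, 24.8% higher and 37.4% lower. Ccl3, Ccl4, Ccl5 and Ccl22 rose and Ccl6, Ccl17 and Ccr1 fell in both genotypes, and Ccl24 was called lower in wild-type libraries and was not called in the knockout. With most genes called in both comparisons, these counts are no result about the 9 genes as a set. The median log2 fold change of the 9 genes was 0.05 in knockout libraries, beside -0.12 over all genes, and 0.23 in wild-type libraries, beside -0.11 over all genes. In bulk RNA, fewer cells of a type and less RNA per cell cannot be told apart.

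**Figure D3:**
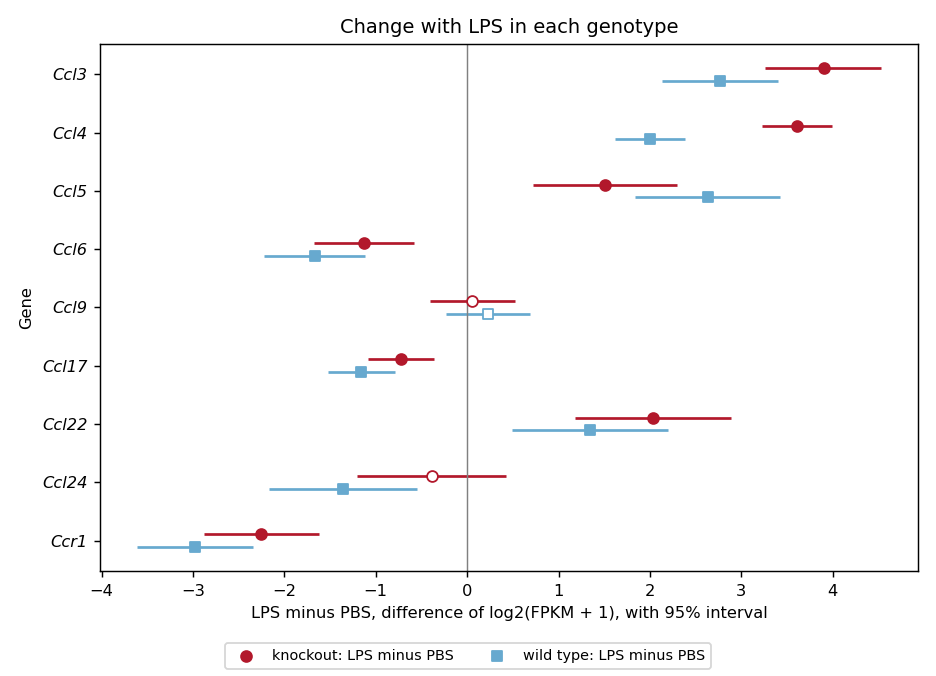
Difference of log2(FPKM + 1), LPS minus PBS, for the 9 genes in knockout libraries (circles) and wild-type libraries (squares), with 95% intervals. Filled symbols have an adjusted p below 0.05, and the open ones are Ccl9 in both genotypes and Ccl24 in the knockout.

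Ccl3 (MIP-1α), a ligand of Ccr1, was at 803, 719 and 1109 FPKM in knockout LPS libraries, against 79.1, 48.2 and 48.4 FPKM in knockout PBS libraries. In wild-type mice it was at 651, 895 and 504 FPKM with LPS, against 127, 105 and 68.2 FPKM with PBS. Every LPS library was above every PBS library by a wide margin. Ccl3 rose by 3.90 ± 0.29 (SE) on the log2 scale in the knockout (limma, adjusted p = 2.58e-06), 14.9-fold in FPKM + 1, and by 2.77 ± 0.29 in wild type (adjusted p = 1.68e-05), 6.8-fold.

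Ccl4 (MIP-1β), a chemoattractant of monocytes and T cells, was at 534, 560.5 and 539 FPKM in knockout LPS libraries, against 58.6, 40.0 and 35.6 FPKM in knockout PBS libraries. In wild-type mice it was at 373, 400.2 and 302 FPKM with LPS, against 90.3, 94.9 and 80.0 FPKM with PBS. The 4 groups did not overlap at all, with the knockout LPS group highest and the knockout PBS group lowest. Ccl4 rose by 3.61 ± 0.17 in the knockout (limma, adjusted p = 1.72e-07), 12.2-fold and 12th of the 9841 genes by p, and by 2.0 ± 0.17 in wild type (adjusted p = 5.85e-06), 4-fold.

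Both Ccl3 and Ccl4 thus rose. The ratio of Ccl4 to Ccl3 FPKM was 0.486 to 0.779 in knockout LPS libraries, 0.447 to 0.600 in wild-type LPS libraries, 0.735 to 0.829 in knockout PBS libraries and 0.713 to 1.17 in wild-type PBS libraries. The log2 ratio was 0.52 lower with LPS than with PBS within genotype (difference -0.52, two-sided exact permutation p = 0.015 over 400 relabellings). Taken by genotype, the difference was -0.28 in the knockout, where the ranges overlapped (exact permutation p = 0.3), and -0.77 in wild type (exact permutation p = 0.1, the smallest that 20 relabellings can give). Knockout minus wild type was 0.24 under LPS and -0.25 under PBS (exact permutation p = 0.4 each), opposite in sign, so that they cancelled to -0.00 over both treatments (exact permutation p = 0.98).

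Ccl5 (RANTES), which binds Ccr1 and Ccr3, was at 861, 1134 and 876 FPKM in knockout LPS libraries, against 268, 367 and 375 FPKM in knockout PBS libraries. Wild-type libraries held it at 980.1, 1139.7 and 983 FPKM with LPS, against 332, 153 and 88.7 FPKM with PBS. The LPS libraries of both genotypes lay close together, while the wild-type PBS libraries spread widely. Ccl5 rose by 1.51 ± 0.36 in the knockout (limma, adjusted p = 0.00454), 2.84-fold, and by 2.63 ± 0.36 in wild type (adjusted p = 9.45e-05), 6.2-fold.

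Ccl6 was at 220.1, 115 and 198 FPKM in knockout LPS libraries, against 418, 339 and 371 FPKM in knockout PBS libraries. In wild-type mice it was at 161, 112 and 116 FPKM with LPS, against 330.1, 395 and 525 FPKM with PBS. No LPS library reached a PBS library. Ccl6 fell by 1.13 on the log2 scale in the knockout (SE 0.25, limma, adjusted p = 0.00304) and fell by 1.67 in wild type (SE 0.25, adjusted p = 0.000175).

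Its neighbour Ccl9 (MIP-1γ) was at 381, 284 and 492 FPKM in knockout LPS libraries, against 322, 402 and 367 FPKM in knockout PBS libraries. In wild-type mice Ccl9 was at 359.5, 281 and 263 FPKM with LPS, against 288, 279 and 205 FPKM with PBS. The groups overlapped in both genotypes. The differences were 0.05 ± 0.21 in the knockout, with a 95% interval of -0.41 to 0.52 (limma, adjusted p = 0.841), and 0.23 ± 0.21 in wild type, with an interval of -0.23 to 0.69 (adjusted p = 0.363).

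Ccl22 (MDC) was at 42.2, 77.7 and 38.4 FPKM in knockout LPS libraries, against 10.1, 10.6 and 14.1 FPKM in knockout PBS libraries. Its level in wild type was 36.4, 62.5 and 28.6 FPKM with LPS, against 22.4, 19.7 and 7.86 FPKM with PBS. The second LPS replicate was the highest in each genotype, and the groups did not overlap. Ccl22 rose by 2.03 ± 0.39 in the knockout (limma, adjusted p = 0.00121) and by 1.34 ± 0.39 in wild type (adjusted p = 0.0105). Without wild-type LPS replicate 2 the wild-type value was 1.03 and was no longer called (adjusted p = 0.0513), and without wild-type PBS replicate 3 it was 0.91 (adjusted p = 0.0366).

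Ccl17 (TARC), the other ligand of Ccr4 and the neighbour of Ccl22, was at 0.517, 0.286 and 0.273 FPKM in knockout LPS libraries, against 1.0, 1.12 and 1.60 FPKM in knockout PBS libraries. Its level in wild type was 0.404, 0.329 and 0.549 FPKM with LPS, against 2.96, 2.13 and 1.57 FPKM with PBS. All LPS libraries were below all PBS libraries. Ccl17 fell by 0.72 on the log2 scale in the knockout (SE 0.17, limma, adjusted p = 0.00366) and fell by 1.16 in wild type (SE 0.17, adjusted p = 0.000126). It passed the filter on low values only through its PBS level, so a difference was partly built in, and the added 1 FPKM makes these changes smaller than those of the FPKM. With 0.1 FPKM added instead, they were -1.56 in the knockout (limma, adjusted p = 0.00135) and -2.12 in wild type (adjusted p = 0.000129). Cx3cl1, the gene between them, was at no more than 0.293 FPKM in any library and was not tested.

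Ccl24 (eotaxin-2) was at 75.0, 71.1 and 55.6 FPKM in knockout LPS libraries, against 79.4, 119.8 and 70.9 FPKM in knockout PBS libraries, and these groups overlapped. Wild-type libraries held it at 82.4, 60.5 and 64.9 FPKM with LPS, against 178, 339.6 and 92.9 FPKM with PBS, without overlap. Ccl24 fell by 1.36 in wild type (SE 0.37, limma, adjusted p = 0.00769), and in the knockout the difference was -0.39 ± 0.37 with a 95% interval of -1.20 to 0.42 (adjusted p = 0.395). The responses of the genotypes were not shown to differ (difference 0.97 ± 0.52, adjusted p = 0.574), and that difference was 0.51 without wild-type PBS replicate 2 (adjusted p = 0.672) and 1.43 without replicate 3 (adjusted p = 0.168). The wild-type value rests in part on the spread of the PBS libraries, being -0.90 without wild-type PBS replicate 2 (adjusted p = 0.0201) and -1.83 without replicate 3 (adjusted p = 0.000319). Eosinophil markers summed to 8.33 to 10.8 FPKM in knockout LPS, 9.22 to 13.8 in wild-type LPS, 18.5 to 22.7 in knockout PBS and 25.9 to 36.3 in wild-type PBS libraries, with Epx at 0 throughout and both tested markers of 8 lower with LPS in each genotype.

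Ccr1, the receptor of Ccl3, Ccl5, Ccl6 and Ccl9, was at 57.9, 23.8 and 26.3 FPKM in knockout LPS libraries, against 169, 174 and 143 FPKM in knockout PBS libraries. In wild-type mice it was at 22.9, 15.0 and 23.4 FPKM with LPS, against 168, 189 and 140.3 FPKM with PBS. All LPS libraries were well below all PBS libraries, while Ccl3 and Ccl5 stood the other way round. Ccr1 fell by 2.25 in the knockout (SE 0.29, limma, adjusted p = 9.09e-05) and fell by 2.98 in wild type (SE 0.29, adjusted p = 1.07e-05).

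Cell type markers moved with LPS as well, and their part in these changes was not tested. Their counts stand beside 33.3% of all genes lower and 19.9% higher in the knockout, and 37.4% lower and 24.8% higher in wild type. Of 9 tested neutrophil markers, 2 were lower and 1 higher with LPS in the knockout, and 7 were lower in wild type. Their summed level was 845 to 2846 FPKM in knockout LPS, 249.7 to 384 in wild-type LPS, 1359 to 3162 in knockout PBS and 2074 to 3471 in wild-type PBS libraries. Of 12 large peritoneal macrophage markers, 8 were lower and 1 higher in the knockout, and 6 were lower and 1 higher in wild type. Their sums were 1118 to 1164 FPKM in knockout LPS, 1005 to 1383 in wild-type LPS, 1522 to 2231 in knockout PBS and 1205 to 2724 in wild-type PBS libraries. Of 7 monocyte markers, 5 were lower in the knockout and 6 in wild type. They summed to 89.9 to 147 FPKM in knockout LPS, 79.1 to 86.3 in wild-type LPS, 237 to 344 in knockout PBS and 205 to 411 in wild-type PBS libraries. Of 8 B cell markers, 6 were lower in the knockout and 5 in wild type. Of 8 T cell markers, 2 were lower in the knockout and all 8 in wild type, with sums of 9.35 to 19.6 FPKM in knockout LPS, 16.1 to 18.3 in wild-type LPS, 19.3 to 27.3 in knockout PBS and 40.2 to 53.8 in wild-type PBS libraries. The next 3 lists, like the neutrophil and large peritoneal macrophage lists, held markers called in both directions. Of 8 mast cell markers, 1 was lower in the knockout, and 2 were higher and 1 lower in wild type. The marker lower in wild type was Hdc, which is also on the neutrophil list. Of 5 markers of small peritoneal macrophages and dendritic cells, 3 were higher and 2 lower in the knockout, and 2 were higher and 2 lower in wild type. Of 6 natural killer markers, 2 were higher and 1 lower in the knockout, and 1 was higher and 3 lower in wild type. Some markers averaged below 1 FPKM in both LPS groups and passed the filter only through their PBS level. Among them were Cd3d, Cd4 and Cd5 of the T cell list, Klrb1c and Klrd1 of the natural killer list and Garnl3 of the large macrophage list. Their falls were partly built in.

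Around these genes, the other tested CC ligands mostly rose with LPS. Of the 21 CC ligands listed, 11 were tested, and 7 rose and 2 fell in the knockout, while 6 rose and 3 fell in wild type. These counts are mostly of the 9 genes themselves. The 3 that are not among the 9 genes were the monocyte chemoattractants Ccl2, Ccl7 and Ccl12, of which 3 rose in the knockout and 2 in wild type. Ccl12 rose by 2.02 ± 0.17 in the knockout (limma, adjusted p = 6.15e-06) and by 1.89 ± 0.17 in wild type (adjusted p = 7.25e-06), and Ccl7 rose by 1.86 ± 0.41 in the knockout (adjusted p = 0.00302) and by 1.41 ± 0.41 in wild type (adjusted p = 0.0115). Ccl2 rose by 1.18 ± 0.34 in the knockout (adjusted p = 0.0134) and had 0.39 ± 0.34 in wild type (adjusted p = 0.339). The ligands left untested reached no more than 1.22 FPKM in any library. The median change over the 11, most of them among the 9 genes, was 1.51 in the knockout, beside -0.12 over all genes. In wild type it was 1.34, beside -0.11. Over all genes, more were called lower than higher, 33.3% against 19.9% in the knockout and 37.4% against 24.8% in wild type, and the counts of the lists that follow stand beside those shares.

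Of 14 CC receptors and decoys considered, 6 were tested, and 2 rose and 4 fell in the knockout, while 1 rose and 3 fell in wild type. Ackr2, named only for this limit, was among those that fell in the knockout. It averaged 0.684 FPKM in knockout LPS and 1.08 FPKM in wild-type LPS libraries. In PBS libraries it averaged 2.37 FPKM in the knockout and 2.33 FPKM in wild type. It passed the filter only through its PBS level, so its fall was partly built in. The median change was -1.07 in the knockout, beside -0.12 over all genes, and -0.90 in wild type, beside -0.11. Ccr2, the monocyte receptor of Ccl2, fell by 4.05 in the knockout (SE 0.17, limma, adjusted p = 9.95e-08) and fell by 4.26 in wild type (SE 0.17, adjusted p = 9.22e-08). Ccrl2, a receptor-like protein that does not signal in the usual way, rose by 1.85 ± 0.22 in the knockout (adjusted p = 6.25e-05) and by 1.42 ± 0.22 in wild type (adjusted p = 0.000243). The receptors of the type 2 ligands were low in these cells, since Ccr3 reached at most 1.77 FPKM and Ccr4 at most 0.447 FPKM, and neither was tested.

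**Figure D4:**
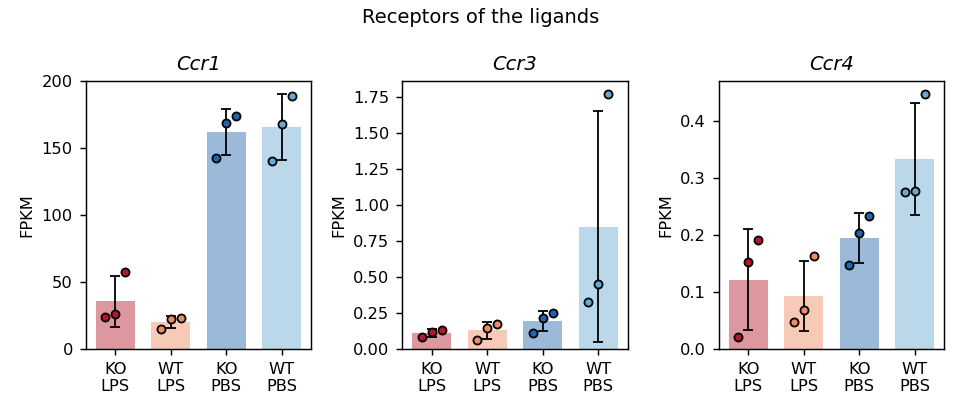
FPKM of 3 receptors of the ligands, with the lowest, middle and highest library of a group as points from left to right, the bar at the mean and the whisker at 1 SD of 3 libraries. Ccr1 is lower with LPS in both genotypes, and Ccr3 and Ccr4 stay below 2 FPKM on axes of their own.

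Downstream of the receptors, 20 of 23 listed signalling genes were tested, and 14 fell and 3 rose in the knockout, while 15 fell and 2 rose in wild type. The median change was -0.83 in the knockout, beside -0.12 over all genes, and -0.79 in wild type, beside -0.11. The β-arrestin gene Arrb2, which ends receptor signalling, fell by 1.85 in the knockout (SE 0.25, limma, adjusted p = 0.000117) and fell by 2.07 in wild type (SE 0.25, adjusted p = 3.72e-05). Grk6, a kinase that phosphorylates such receptors, fell by 2.18 in the knockout (SE 0.19, adjusted p = 6.62e-06) and fell by 1.77 in wild type (SE 0.19, adjusted p = 1.87e-05). Rgs2, which shortens G protein signals, fell by 2.06 in the knockout (SE 0.27, adjusted p = 0.000118) and fell by 2.88 in wild type (SE 0.27, adjusted p = 9.76e-06). Rgs2 averaged 0.844 FPKM in knockout LPS and 0.727 FPKM in wild-type LPS libraries and passed the filter only through its PBS level, so its fall was partly built in.

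Of 21 genes of the interleukin 4 and 13 pathway and of alternative macrophage activation, 17 were tested, and 7 fell and 1 rose in the knockout, while 8 fell and 1 rose in wild type. Mgl2, named only for this limit, fell in both genotypes. It averaged 1.06 FPKM in knockout LPS, 0.864 in wild-type LPS, 2.69 in knockout PBS and 3.13 in wild-type PBS libraries. It passed the filter only through its PBS level, so its falls were partly built in. Among all genes 33.3% were called lower and 19.9% higher in the knockout, and 37.4% lower and 24.8% higher in wild type, so the share of this list that fell was near that of all genes. Its median change was -0.64 in the knockout, beside -0.12 over all genes, and -0.55 in wild type, beside -0.11. Arg1, the arginase of alternatively activated macrophages, fell by 3.01 in the knockout (SE 0.52, limma, adjusted p = 0.00062) and fell by 2.51 in wild type (SE 0.52, adjusted p = 0.00143). Il13ra1, a subunit of a receptor for both interleukins, fell by 1.07 in the knockout (SE 0.28, adjusted p = 0.00764) and fell by 1.33 in wild type (SE 0.28, adjusted p = 0.00169). Irf4, a transcription factor linked to Ccl17 and Ccl22 in dendritic cells, was the gene that rose, by 1.84 ± 0.27 in the knockout (adjusted p = 0.000249) and by 1.33 ± 0.27 in wild type (adjusted p = 0.00147). Il4 and Il13 themselves were not tested, with at most 0.325 and 1.07 FPKM in any library.

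The knockout was then set against wild type within each treatment. Under LPS none of the 9 genes was called, where 0% of all genes were called, and 2 of the 9 and 744 of the 9841 genes had an unadjusted p below 0.05 by limma. Under PBS none of the 9 was called, where 0.112% of all genes (11 genes) were called, and 6 of the 9 and 897 of all genes had an unadjusted p below 0.05. The median difference of the 9 genes was 0.33 under LPS, beside -0.04 over all genes, and -0.38 under PBS, beside -0.02 over all genes. No tested gene of the ligand, receptor, signalling or interleukin lists was called either.

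Groups of knockout and wild-type libraries did not overlap for 2 of the 9 genes under LPS, where 15.4% of all genes did not overlap, and for 2 of the 9 under PBS, where 13.4% did not. Ccl4 was among them in both, higher in the knockout under LPS (0.61 ± 0.17, 95% interval 0.23 to 0.99, limma, adjusted p = 0.468) and lower in the knockout under PBS (-1.0 ± 0.17, interval -1.38 to -0.61, adjusted p = 0.0694). Without knockout PBS replicate 1 the PBS difference was -1.20 and was called (adjusted p = 0.0284), and without wild-type PBS replicate 3 it was -1.07 (adjusted p = 0.05, not called). Its means were 545 ± 14.0 FPKM in knockout LPS, 358 ± 50.7 in wild-type LPS, 44.7 ± 12.2 in knockout PBS and 88.4 ± 7.66 in wild-type PBS libraries (SD, n = 3 each). A lack of overlap in opposite directions under the treatments was seen in 149 genes, 1.51% of those tested. The other genes without overlap were Ccr1, higher in the knockout under LPS (0.70 ± 0.29, adjusted p = 0.655), and Ccl9, higher in the knockout under PBS (0.51 ± 0.21, adjusted p = 0.502). Without knockout LPS replicate 1 the Ccr1 difference was 0.30 (adjusted p = 0.801).

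Ccl5 differed under PBS by 1.0 ± 0.36 (knockout minus wild type, 95% interval 0.21 to 1.80, limma, adjusted p = 0.449). Knockout PBS libraries averaged 337 ± 59.4 FPKM and wild-type PBS libraries 191 ± 126 FPKM, with overlap through wild-type PBS replicate 1 at 332 FPKM. Without that replicate the difference was 1.51 and was called (adjusted p = 0.0396), and without wild-type PBS replicate 3 it was 0.56 (adjusted p = 0.625). Under LPS the interval for Ccl5 was -0.91 to 0.67. Ccl24 differed by -1.01 ± 0.37 under PBS (interval -1.82 to -0.20, adjusted p = 0.455), Ccl3 by -0.76 ± 0.29 (adjusted p = 0.482) and Ccl17 by -0.51 ± 0.17 (adjusted p = 0.386), and none of these passed the threshold. The Ccl24 difference was -0.55 without wild-type PBS replicate 2 (adjusted p = 0.412) and -1.48 without replicate 3 (adjusted p = 0.0533).

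Some marker sums stood apart between the genotypes although few markers were called, and their part was not tested. Groups of 3 often stand apart, as 15.4% of all single genes did under LPS and 13.4% under PBS. The large peritoneal macrophage, B cell and erythroid sums overlapped under both treatments. Each sum given below as apart under 1 treatment overlapped under the other. The summed neutrophil markers of knockout LPS libraries, 845 to 2846 FPKM, did not overlap those of wild-type LPS libraries, 249.7 to 384 FPKM, although no marker among the 9 tested was called. Under PBS the T cell markers summed to 19.3 to 27.3 FPKM in knockout libraries and 40.2 to 53.8 FPKM in wild-type libraries, with none of 8 called. Mast cell markers summed to 643 to 722 FPKM in knockout LPS and 829.7 to 840.3 FPKM in wild-type LPS libraries. For monocyte markers these sums were 89.9 to 147 and 79.1 to 86.3 FPKM. Eosinophil markers summed to 18.5 to 22.7 FPKM in knockout PBS and 25.9 to 36.3 FPKM in wild-type PBS libraries. For small peritoneal macrophages and dendritic cells these sums were 82.6 to 106 and 114 to 117 FPKM. No tested marker of these lists was called. The eosinophil sums were mostly Ear2 and Il5ra, since Epx was at 0 and the other eosinophil markers reached at most 2.02 FPKM. Natural killer markers summed to 16.8 to 28.1 FPKM in knockout PBS and 27.0 to 63.9 FPKM in wild-type PBS libraries, and these ranges overlapped. Of the 6 tested, 1 was called, Klrd1, at -0.93 ± 0.15 (limma, adjusted p = 0.0479). Klrd1 is named after its value was seen, and it passed the filter on low values only through its wild-type PBS level, so the difference was partly built in. Its means were 0.405 FPKM in knockout LPS, 0.564 in wild-type LPS, 1.06 in knockout PBS and 2.98 in wild-type PBS libraries.

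The question of whether the LPS response itself differed between the genotypes was put to the interaction, the change with LPS in the knockout minus that in wild type. None of the 9 genes was called, where 0.0406% of all genes (4 genes) were, and 3 of the 9 and 946 of all genes had an unadjusted p below 0.05 by limma. Ccl4 came nearest, with a difference of 1.61 ± 0.25 (95% interval 1.07 to 2.15, unadjusted p = 3.68e-05, adjusted p = 0.0524), 6th of the 9841 genes by p. The difference adds the higher knockout level under LPS to the lower knockout level under PBS. It was past the threshold in 6 of 19 alternative settings, with an adjusted p between 0.0213 and 0.216 over all of them. Those 6 included the fits without wild-type PBS replicate 3 (1.68, adjusted p = 0.0222), without knockout PBS replicate 1 (1.81, adjusted p = 0.0213) and without knockout LPS replicate 2 (1.59, adjusted p = 0.0497).

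Ccl3 differed in the same direction by 1.13 ± 0.41 (95% interval 0.24 to 2.02, limma, adjusted p = 0.449). Ccl5 differed in the other direction by -1.12 ± 0.51 (interval -2.24 to -0.01, adjusted p = 0.513), which was -0.68 without wild-type PBS replicate 3 (adjusted p = 0.513) and -1.63 without replicate 1 (adjusted p = 0.111). For Ccl9 the interval was -0.83 to 0.48, for Ccl22 -0.52 to 1.89 and for Ccr1 -0.17 to 1.62, so differences of these sizes between the responses could not be seen or set aside with 3 libraries a group. The median over the 9 genes was 0.69, beside -0.02 over all genes.

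**Figure D5:**
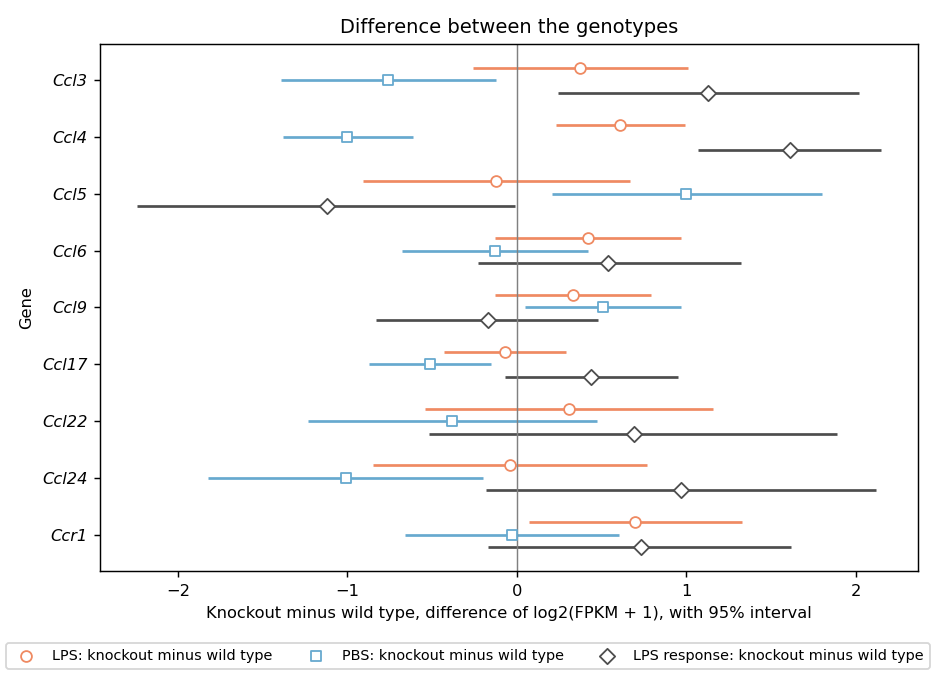
Difference of log2(FPKM + 1), knockout minus wild type, for the 9 genes under LPS (circles), under PBS (squares) and in the LPS response (diamonds), with 95% intervals. All symbols are open because none had an adjusted p below 0.05, and the Ccl4 intervals lie above 0 under LPS and below 0 under PBS.

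Some of the 9 genes moved together across the 12 libraries. Pearson's r of log2(FPKM + 1) was 0.99 between Ccl3 and Ccl4 and 0.94 between Ccl6 and Ccr1, and 0.75 and 0.44 once group means were removed, so that part of each came from differences between the groups. Ccl9 had r of -0.33 to 0.43 with the other genes. Among genes of at least 5 FPKM, that most like Ccl3 was Cxcl2, a neutrophil chemoattractant, with r = 0.991 (0.87 with group means removed) and 1128 FPKM in knockout LPS, 859 in wild-type LPS, 128 in knockout PBS and 199 in wild-type PBS libraries on average. Il1a and Pim3 came next for Ccl3, with r = 0.985 each (0.78 and 0.71 with group means removed). Those most like Ccl4 were Ptgs2, the inducible cyclooxygenase (r = 0.978), Ch25h, which makes 25-hydroxycholesterol (r = 0.977), and Cxcl2 (r = 0.977). With group means removed these were 0.63, 0.53 and 0.66, so part of this likeness came from differences between the groups.

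The genes other than Ccl3 and Ccl4, both those that fell with LPS and those that did not, had other companions. Ccl6 was most like Il6ra, a subunit of the interleukin 6 receptor (r = 0.986), and Ccr1 was most like Adam8, a membrane metalloproteinase (r = 0.987), and Lgals3, galectin 3 (r = 0.986). Ccl24 was most like Nkg7 (r = 0.940), a natural killer marker. Ccl17 was most like Prkar2b (r = 0.959), Ccl22 most like Tmem11 (r = 0.969), Ccl5 most like Rbm26 (r = 0.987) and Ccl9 most like Yipf5 (r = 0.914). With group means removed, r was 0.90 for Il6ra, 0.77 for Adam8, 0.78 for Lgals3 and 0.84 for Nkg7. For Prkar2b it was 0.62, for Tmem11 0.89, for Rbm26 0.93 and for Yipf5 0.88. These are descriptions over 12 libraries that share treatment and genotype, chosen as the highest among the tested genes, and they carry no test.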

How the data were processed

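RNA of mouse peritoneal lavage cells was sequenced in 12 libraries, 3 in each of 4 groups, taken from the descriptions in the labels because the titles of the knockout libraries name wild-type mice. The authors deposited 1 value per gene and library, taken as FPKM from the values, which are not whole, and from the tools named. Per the submitters' processing notes, the build was GRCm38 and the tools included Cufflinks, TopHat, HTSeq and DESeq, without role or version. Whether strand was used is not given in the sources used here, and overlapping or antisense genes cannot be told apart. From 21878 rows, 27 symbols that had become dates were left out.

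The deposited values were tested as log2(FPKM + 1) with limma 3.58.1 in R 4.3.3, using a mean per group over all 12 libraries, trended and robust variances, and genes averaging 1 FPKM or more. Tests were two-sided, with Benjamini-Hochberg adjustment over 9841 genes and a threshold of 0.05. A difference on this scale understates that of low genes. Alternatives were a pseudocount of 0.1, no filter, a mean of at least 5 FPKM, other scalings, plain eBayes, a replicate block, fits of 6 libraries and leaving out each library. The procedure was tested on simulated data. Exact permutation tests enumerated all relabellings. All 9 genes were named. From each gene list up to 4 called genes with the largest changes could be named, and for each of the 9 genes the 3 most correlated genes. The 9 genes and the lists were chosen with earlier results of these data known. Some genes are not reported here. Figures used Python 3.11.15 with matplotlib 3.10.9.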

Additional observations from a re-analysis of the deposited data

Results flagged for a closer look

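Ccl4 was singled out because its knockout-minus-wild-type difference pointed in opposite directions under the treatments. All 3 knockout LPS libraries (534 to 560.5 FPKM) were above all 3 wild-type LPS libraries (302 to 400.2 FPKM), and all 3 knockout PBS libraries (35.6 to 58.6 FPKM) were below all 3 wild-type PBS libraries (80.0 to 94.9 FPKM). The difference between the LPS responses was 1.61 ± 0.25 on the log2 scale (limma, unadjusted p = 3.68e-05, adjusted p = 0.0524). It was past the threshold of 0.05 in 6 of 19 alternative settings, and 1.51% of the tested genes had groups apart in opposite directions.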

How the results depend on the processing

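Of the values of single genes among the 9, 652 kept their direction and side of the threshold under the alternatives, 8 passed the threshold, 1 fell short of it (Ccl22 in wild type, 1.03 without wild-type LPS replicate 2) and 9 changed sign without being called. The count of the 9 genes called kept within 1.5 times of its value for LPS against PBS in both genotypes, at 6 to 7 in the knockout and 7 to 8 in wild type, and stayed 0 between genotypes under LPS. Under PBS it ran from 0 to 1 when a library was left out, with Ccl5 called without wild-type PBS replicate 1 (1.51, adjusted p = 0.0396) and Ccl4 without knockout PBS replicate 1 (-1.20, adjusted p = 0.0284). For the genotype difference in the LPS response it was 1, Ccl4, with median-of-ratios scaling (1.63), upper-quartile scaling (1.62) and plain eBayes (1.61), and 0 to 1 when a library was left out, with Ccl4 at 1.68 without wild-type PBS replicate 3, 1.81 without knockout PBS replicate 1 and 1.59 without knockout LPS replicate 2. Signs changed in uncalled values when a library was left out: Ccl9 in the knockout LPS response ranged from -0.14 to 0.26, Ccr1 under PBS from -0.14 to 0.07, Ccl6 under PBS from -0.28 to 0.05, Ccl24 under LPS from -0.13 to 0.09, Ccl22 under LPS from -0.00 to 0.62, and Ccl9 in the interaction from -0.37 to 0.03. Over all genes, calls under PBS were 11 as reported, 4 at a mean of at least 5 FPKM, 0 in a fit of 6 libraries and 0 to 39 without a library, calls under LPS were 0 as reported, 2 with no filter, 3 in a fit of 6 libraries and up to 29 without a library, and calls of the interaction were 4 as reported, 1 with no filter or at 5 FPKM, 8 and 9 with the scalings, 7 with plain eBayes and 0 to 49 without a library. At a mean of at least 5 FPKM Ccl17 has no value. The cause was not tested.

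The labels do not say whether replicate numbers pair the libraries. Deviations of same-numbered libraries correlated at -0.25 to 0.19. This cannot show whether they were paired, since differently numbered libraries were not set beside them. With the replicate block 7 of the 9 genes were called with LPS in the knockout and 8 in wild type, and 0 in the other comparisons (Ccl4 interaction 1.61, adjusted p = 0.0912), while calls over all genes were 3 under PBS and 0 for the interaction. FPKM carry no read depth, which limits what can be said of Ccl17, Ccr3 and Ccr4.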
